A study of Mus musculus with 45 samples.

Results

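The genes described here are Cdo1 and 9 other genes that handle cysteine, taurine and glutathione: Csad, Ado, Cth, Cbs, Gclc, Gclm, Gss, Slc6a6 and Slc7a11. They are 10 of the 26214 genes in the expression table. The set was built around Cdo1, which was chosen by its drop in K36M fully grown oocytes (FGOs), so its values in those oocytes are given as a description and carry no test. The other 9 genes were selected by pathway and not by their level.

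RNA was measured in 6 libraries of pooled FGOs, 3 control and 3 K36M, and in single late two-cell embryos, of which 7 control and 8 K36M oocyte-derived embryos were compared. Control FGOs came from H3f3b K36M-flox/+ females without Cre, and K36M FGOs from H3f3b K36M-flox/+; Gdf9-Cre females, so both groups of females carried the K36M-flox allele and the controls lacked the recombinase. The Gdf9 promoter is active in oocytes, and recombination of this allele makes HA-tagged histone H3.3 with lysine 36 replaced by methionine, a form that lowers H3K36 methylation. The mice were hybrids of C57BL/6 and 129, and the females giving FGOs were 3 to 4 weeks old. Two-cell embryos came from superovulated eggs of control or K36M females fertilized in vitro, with the strain labelled hybrid C57BL/6 / 129 X JF-1, and were harvested 31 to 32 h after fertilization. Control and K36M thus name the mother's genotype, and the allele that each embryo inherited was not given in the sources used here. An eighth control embryo, replicate 4, was left out by the study for a technical problem and was left out here.

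Expression is given as TPM, a transcript level scaled for gene length and library total, so that genes can be compared with each other. TPM does not keep the read depth, which limits what can be said of low values. In FGOs 16707 to 18559 genes had a TPM above 0, against 12115 to 17329 in control embryos and 10894 to 14879 in K36M embryos. The 8 oocyte markers summed to 15447 TPM or more in every FGO library, the 6 blood markers to at most 3.21 TPM, and the 12 granulosa and cumulus markers to 127 to 208 TPM, with Ptx3 at 0 in the control FGOs. H3f3b itself, which carries the mutant allele, was at 265 to 308 TPM in control and 377 to 418 TPM in K36M FGOs (log2 fold change 0.44 ± 0.09 SE, limma adjusted p = 0.281), groups that did not overlap. Gapdh was listed at 0 in some embryos of both genotypes, so a member listed at 0 in an embryo is reported as such and not as absent.

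Cysteine is both a building block of proteins and the starting point of small sulphur metabolites. Slc7a11 forms the cystine importer of the cell surface, while Cbs and Cth make cysteine from homocysteine. Cdo1, cysteine dioxygenase, oxidizes cysteine to cysteine sulfinate, which Csad converts to hypotaurine, the precursor of taurine. Ado makes hypotaurine from cysteamine and Slc6a6 carries taurine into the cell. Gclc and Gclm are the catalytic and the modifier subunit of glutamate-cysteine ligase, which with Gss makes glutathione, the main thiol antioxidant of oocytes.

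In the GRCm38.p6 assembly the 9 other members lie on chromosomes 2 (Gss), 3 (Cth, Gclm and Slc7a11), 6 (Slc6a6), 9 (Gclc), 10 (Ado), 15 (Csad) and 17 (Cbs), and the place of Cdo1 is given with its neighbours. Csad, Gclm, Gss and Slc6a6 each overlap another annotated gene, so reads of the overlap could count for either.

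RefSeq promoter windows, from 250 bases before to 50 bases after a transcript start, were found for 6 of the 10 members (Csad, Ado, Cbs, Gclm, Gss and Slc7a11; 7 windows). They were searched on both strands for 2 stress-response motifs: TGACNNNGC, the antioxidant response element core, and TGATGCAA, the composite motif of CHOP and ATF proteins. The windows of Slc7a11 and Gclm were the only 2 of the 7 that held a match and are printed for that reason. The Slc7a11 window lies on the minus strand at chr3:50443564-50443863, within the annotated gene, and the Gclm window on the plus strand at chr3:122245307-122245606, over the start of its gene. Both are printed 5′ to 3′ on the strand of the gene, with the motif matches in capitals.
Slc7a11: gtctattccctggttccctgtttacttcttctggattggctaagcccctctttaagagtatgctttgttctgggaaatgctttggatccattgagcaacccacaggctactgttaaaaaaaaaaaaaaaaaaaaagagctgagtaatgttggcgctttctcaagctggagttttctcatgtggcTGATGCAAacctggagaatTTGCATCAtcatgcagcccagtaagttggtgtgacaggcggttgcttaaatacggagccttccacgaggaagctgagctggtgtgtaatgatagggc
Gclm: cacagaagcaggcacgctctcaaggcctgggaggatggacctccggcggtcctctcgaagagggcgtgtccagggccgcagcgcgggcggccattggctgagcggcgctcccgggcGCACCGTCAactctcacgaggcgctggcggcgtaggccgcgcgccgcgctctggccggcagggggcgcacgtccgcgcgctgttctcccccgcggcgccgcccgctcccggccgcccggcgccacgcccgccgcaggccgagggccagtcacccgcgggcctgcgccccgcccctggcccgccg
Slc7a11 had 2 matches to TGATGCAA, on opposite strands, which begin at positions -66 and -47 from the start. Gclm had 1 match to TGACNNNGC on the minus strand, at position -134. TGATGCAA occurred in 0.895% of 32851 promoter windows and TGACNNNGC in 12.4% of them, and a match describes the letters and not a bound site.

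Cdo1 had the highest level of the 10 genes in control FGOs. It stood at 239.95, 239 and 261 TPM in the 3 control libraries and at 109, 75.5 and 102 TPM in the 3 K36M libraries. Every K36M library was below every control library, and the mean fell from 247 ± 12.1 to 95.3 ± 17.4 TPM (SD, n = 3 each), which is 38.7% of the control level. On the log2(TPM + 1) scale used for every fold change here, the difference was -1.38 ± 0.13 (SE). In K36M FGOs Slc7a11 took the first place and Cdo1 the second. Since FGOs were pooled, fewer oocytes with the transcript and less of it per oocyte cannot be told apart.

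Other values moved with genotype in the same 6 libraries. The summed oocyte markers were 17650 to 17982 TPM in control and 15447 to 16979 TPM in K36M FGOs. Of the 8 oocyte markers, 6 did not overlap between the groups, 5 lower and 1 higher in K36M, where 15.6% of all genes tested did not overlap, and none was at 0. The summed granulosa and cumulus markers were 127 to 138 TPM in control and 139 to 208 TPM in K36M FGOs, although none of the 12 separated the groups singly. Most of that sum was Nr5a2, which had a median of 68.7 TPM in control and 140 TPM in K36M FGOs. Over the 12 genes, 6 medians were higher in K36M, 5 lower (Foxl2, Inha, Amhr2, Hsd3b1 and Star) and 1, Ptx3, at 0 in both. The summed stroma and endothelium markers were 67.1 to 70.0 TPM in control and 57.0 to 65.6 TPM in K36M FGOs, nearly all from Pecam1 (median 65.6 and 58.7 TPM), and 2 of the 6 genes separated the groups, Pecam1 lower and Pdgfra, under 1 TPM, higher. The part of these markers in the Cdo1 values was not tested.

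In two-cell embryos Cdo1 was variable. The 7 control embryos ran from 22.7 to 367 TPM with a median of 78.2 TPM, and the 8 K36M embryos from 2.24 to 110 TPM with a median of 29.8 TPM. The groups overlapped, with 2 control embryos (282 and 367 TPM) above every K36M embryo and 2 K36M embryos (2.24 and 5.00 TPM) well below every control. The log2 difference was -1.69 ± 0.72 (SE, 95% confidence interval -3.19 to -0.20), with a limma adjusted p of 0.603 over all genes. The exact permutation test over embryos, two-sided, gave p = 0.0695, where the smallest p this design allows for 1 division is 0.000155. The drop in embryos therefore passed neither the adjusted limma threshold nor the permutation test, although the unadjusted limma p was 0.0280.

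**Figure D1:**
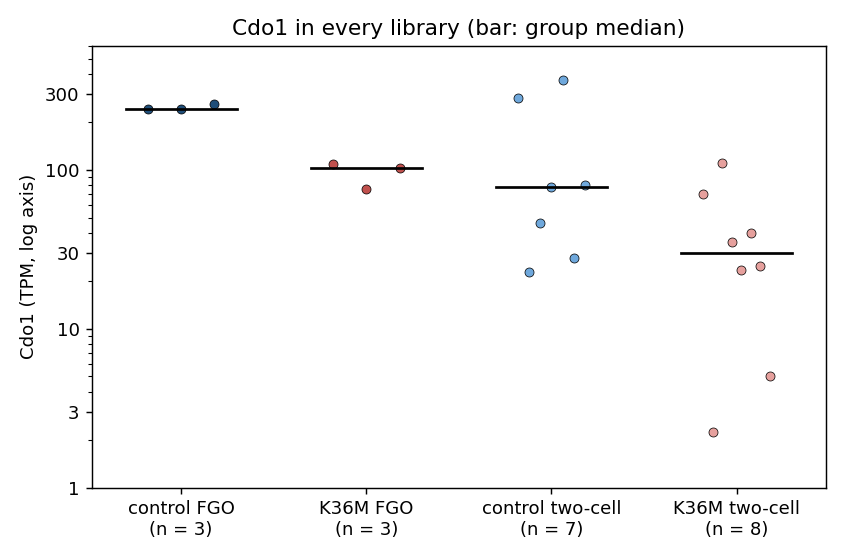
Cdo1 level (TPM, log axis) in each library of control and K36M FGOs (n = 3 each) and of control (n = 7) and K36M oocyte-derived (n = 8) two-cell embryos, with bars at the group medians. The K36M FGOs (75.5 to 109 TPM) lie below all control FGOs, while the embryo groups overlap from 22.7 to 110 TPM.

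Both K36M embryos with the lowest Cdo1, replicates 2 and 8, were also those with the fewest genes above 0 (10894 and 11178). Without them, an alternative chosen after seeing the data, the difference was -0.86 and the exact permutation p 0.251. K36M replicate 2 also had the lowest median of the oocyte markers (5.82 on the log2 scale). The control embryos with the most Cdo1, replicates 1 and 6, had the highest among controls (7.81 and 7.51). Other embryos went the other way. Control replicate 6, with the most Cdo1, had 12722 genes above 0, fewer than control replicate 2 with the least Cdo1 (15445). K36M replicate 8 had a marker median of 6.61, above K36M replicates 6 and 7 (6.42 and 6.41), which had 40.2 and 24.7 TPM of Cdo1. The part of these marker and gene counts in the Cdo1 difference was not tested beyond the value just given. Control replicate 4, left out of the comparison, had 309 TPM, and with it the difference was -1.94 (exact permutation p = 0.0348).

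By median, the order of Cdo1 across the groups was control FGOs, K36M FGOs, control embryos and K36M embryos. The first and second did not overlap. The K36M FGO values lay within the range of the control embryos, and the embryo groups overlapped, so these neighbours do not differ beyond their spread. From FGO to embryo the log2 difference of Cdo1 was -1.62 in control and -1.94 in K36M, both given as descriptions because the FGO values chose the gene.

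Csad, the next enzyme towards taurine, was higher in every K36M FGO library than in any control. Its levels were 37.4, 42.6 and 37.3 TPM in control and 47.3, 51.4 and 53.5 TPM in K36M FGOs. The groups did not overlap, but the log2 difference of 0.37 ± 0.12 (SE) had an unadjusted p of 0.0152 and did not pass adjustment over all genes in limma (adjusted p = 0.398). In control embryos Csad was at 13.3 to 27.1 TPM (median 21.1), below every control FGO. In K36M embryos it spread from 1.61 to 60.6 TPM (median 14.6), a range that enclosed all control embryos. Replicate 8, with 60.6 TPM, was the only K36M embryo above the controls, and replicates 1, 2, 4 and 6 were below them.

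Ado was a low-level transcript. It stood at 7.03, 4.18 and 5.28 TPM in control and 4.24, 6.11 and 11.9 TPM in K36M FGOs, overlapping ranges with a log2 difference of 0.29 ± 0.37 (SE). It was listed at 0 in 4 of the 7 control and 3 of the 8 K36M embryos. The others were at 4.73, 3.18 and 0.123 TPM in control and at 14.7, 0.108, 0.490, 1.52 and 12.9 TPM in K36M embryos, so 1 control and 2 K36M embryos reached the lowest FGO library of their own genotype.

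Slc6a6, the taurine carrier, was well expressed in FGOs at 69.6, 74.1 and 67.9 TPM in control and 88.6, 62.7 and 70.5 TPM in K36M. The K36M values lay on both sides of the controls (log2 difference 0.05 ± 0.14 SE). Embryo levels were lower, from 11.5 to 104 TPM (median 33.3) in control and 7.53 to 54.1 TPM (median 17.5) in K36M. A single control embryo, replicate 6, exceeded the FGOs, whereas all 8 K36M embryos were below all 3 K36M FGO libraries.

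Among the genes that supply cysteine, Slc7a11 was next to Cdo1 in control FGOs, with 180.3, 178 and 169 TPM, and reached 185, 164 and 138 TPM in K36M FGOs. The ranges overlapped and the log2 difference was -0.13 ± 0.11 (SE, limma adjusted p = 0.697). In control embryos it was at 4.59 to 22.4 TPM (median 6.41), and in K36M embryos at 0.944 to 16.3 TPM (median 5.97). No embryo of either genotype came near an FGO library. The promoter with the pair of CHOP-ATF matches printed earlier belongs to this gene, and the part of these matches in its level was not tested.

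Cth, which releases cysteine from cystathionine, was at 13.7, 8.41 and 17.6 TPM in control and 15.1, 11.5 and 8.73 TPM in K36M FGOs, with no separation of the groups. Embryos were uneven. Of the control embryos, 3 were at 83.4 to 95.1 TPM and 4 at 13.9 to 36.1 TPM, and of the K36M embryos 2 were at 87.6 and 108 TPM and the others at 8.50 to 39.4 TPM.

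Cbs, the first enzyme of the route from homocysteine, was nearly silent. It was at 0.263, 0.202 and 0.977 TPM in control and 0.952, 1.71 and 3.06 TPM in K36M FGOs, with 1 control library just above the lowest K36M library. It was listed at 0 in 3 control and 5 K36M embryos, and the highest of the 15 embryos, control replicate 2 with 16.7 TPM, was far above the next, control replicate 3 with 3.06 TPM.

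Of the subunits of glutamate-cysteine ligase, Gclc was the lower in every FGO library, whereas embryos differed in which was the higher. Gclc was at 10.4, 9.94 and 12.8 TPM in control and 13.2, 13.7 and 17.3 TPM in K36M FGOs. These groups did not overlap, but the log2 difference of 0.38 ± 0.21 (SE) was not past the threshold (limma adjusted p = 0.544). In control embryos Gclc reached 47.0 to 80.5 TPM in 6 of 7, with 8.36 TPM in the other. In K36M embryos 5 of 8 were at 38.5 to 87.8 TPM and the others at 5.42, 1.05 and 0.268 TPM.

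Gclm was level in FGOs, with 55.8, 55.3 and 52.8 TPM in control and 56.8, 50.1 and 47.9 TPM in K36M. Embryos spread from 4.48 to 67.2 TPM (median 37.3) in control and from 2.26 to 109 TPM (median 42.0) in K36M. The ratio of Gclc to Gclm was 0.180 to 0.243 in control and 0.232 to 0.362 in K36M FGOs. In embryos it exceeded 1 in 5 of 7 control and 5 of 8 K36M embryos, with medians of 1.86 and 1.15 and a spread from 0.124 to 13.7 in control and from 0.00294 to 25.0 in K36M.

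Gss, which completes glutathione, was at 7.15, 8.44 and 2.89 TPM in control and 5.20, 3.19 and 2.67 TPM in K36M FGOs, overlapping ranges. In control embryos it was between 28.1 and 173 TPM in 6 of 7 and at 1.90 TPM in the other. In K36M embryos it was listed at 0 in 2, was at 0.299 and 2.51 TPM in 2 more, and was between 18.8 and 116 TPM in the remaining 4. The highest embryo was a control, and 3 K36M embryos were below every control.

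**Figure D2:**
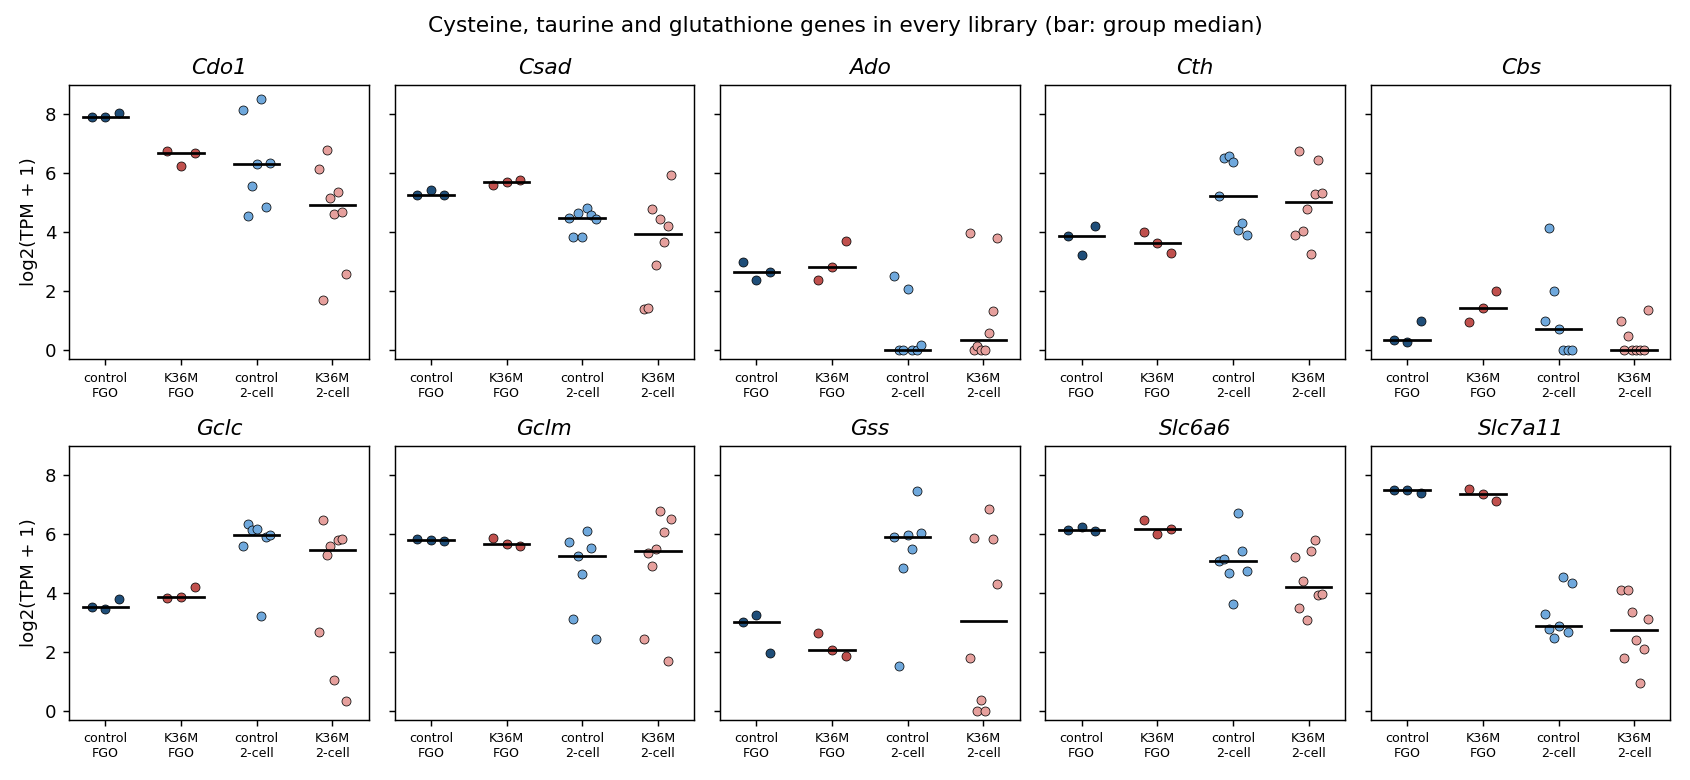
Level of each of the 10 genes, as log2(TPM + 1), in every FGO library and two-cell embryo, with bars at the group medians. Slc7a11 is lower in all embryos than in all FGOs, and Gclc and Gss spread widely among K36M embryos (0.268 to 87.8 TPM and 0 to 116 TPM).

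K36M against control FGOs asks what expression of the mutant histone during oocyte growth does to these transcripts. Of the 9 members other than Cdo1, none passed the limma threshold (adjusted p under 0.05), 5 being higher and 4 lower in K36M, and 1, Csad, had an unadjusted p under 0.05. Over all 13775 genes tested 0.00726% passed the adjusted and 10.5% the unadjusted threshold, and the smallest adjusted p of the 9 was 0.398. The groups did not overlap for 2 of these 9 members (Csad and Gclc), against 15.6% of all genes. Cbs had the largest log2 difference of the 9, 0.95 (95% confidence interval -0.03 to 1.92), at levels near 1 TPM. It averaged 0.48 TPM in control and 1.91 TPM in K36M FGOs, so it passed the filter on a mean of 1 TPM only through K36M. Over the alternative settings its difference ran from 0.82 to 1.89. The intervals of Slc7a11 (-0.38 to 0.13), Gclm (-0.35 to 0.18) and Slc6a6 (-0.26 to 0.36) were the narrowest of those that included 0.

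K36M against control embryos compares embryos by the mother's genotype. What the mother left in the embryo and what the embryo's own inherited allele did cannot be told apart. None of the 10 members passed, as for 0% of all 17362 genes tested with limma, and 1 of them, Cdo1, had an unadjusted p under 0.05, against 7.71% of all genes. No member separated the groups, against 0.115% of all genes. By direction 8 members were lower and 2, Ado and Gclm, higher in K36M embryos, while 63.8% of all genes were lower and the median of all genes was -0.26. Relative to that median Cdo1 was at -1.44, Gss at -1.93 and Gclc at -1.23, and Cth at -0.04. Gss had the largest difference (-2.18 ± 1.07 SE, 95% confidence interval -4.39 to 0.02, limma adjusted p = 0.649). The sign for Slc7a11, -0.54 here, turned to 0.20 with quantile normalization, and that for Gclm, 0.22 here, to -0.12 without embryos 2 and 8.

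**Figure D3:**
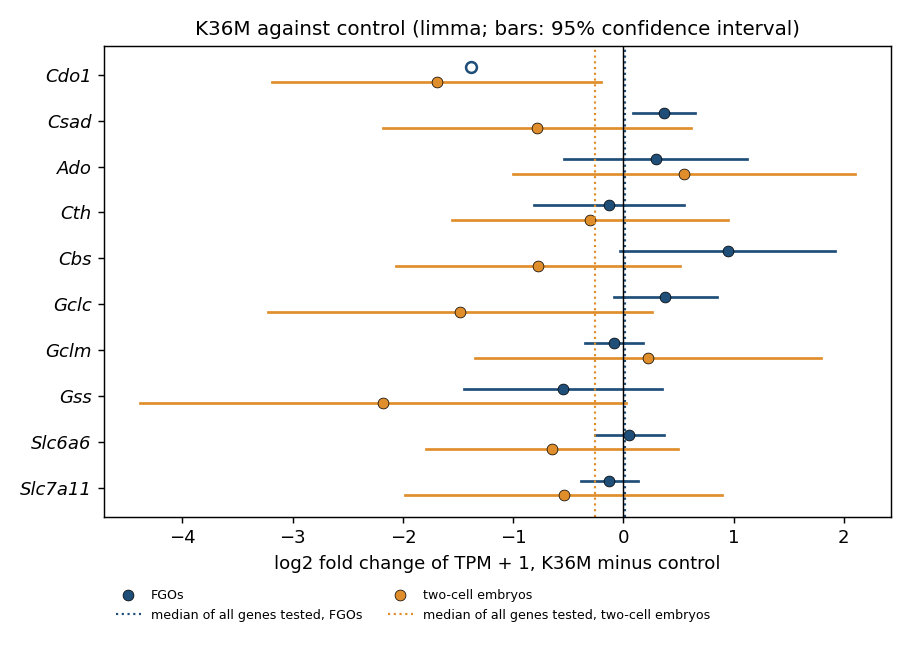
Log2 fold change of TPM + 1, K36M minus control, for each gene in FGOs (blue) and two-cell embryos (orange), with 95% confidence intervals from limma and dotted lines at the median of all genes tested. Cdo1 in FGOs is an open point without an interval because it was chosen by this value; intervals in embryos are several units wide, and that of Gss runs from -4.39 to 0.02.

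The change from FGO to two-cell embryo was compared within each genotype, from the same FGO and embryo libraries as used for the genotype comparisons. FGO pools and single embryos differ in input as well as in stage, and the part of input in these differences cannot be told apart. In control, 2 of the 9 tested members passed, 1 higher and 1 lower, against 15% of 16914 genes called higher, 15.5% called lower and 30.5% in all. Slc7a11 was lower by a log2 difference of -4.18 ± 0.55 (SE, limma adjusted p = 0.000105), a median level 27.8 times lower in embryos. Gclc was higher by 2.03 ± 0.61 (SE, limma adjusted p = 0.0239), a median level 5.88 times higher, with 6 of 7 embryos above every FGO library. Leaving out any 1 control FGO library ended the call for Gclc (adjusted p = 0.0674 to 0.0911 in limma), while Slc7a11 kept its call.

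Gss, higher by 2.58 ± 0.96 (SE) in control embryos, and Ado, with -1.998 ± 0.74, stayed short of the threshold (limma adjusted p = 0.0593 and 0.0556). Both lay close to it, and alternative settings called them, Gss in 3 fits with a lowest limma adjusted p of 0.0274 and Ado in 4 with 0.00413. Csad differed by -0.94 ± 0.41 (SE) with an adjusted p of 0.103, although its control embryos and control FGOs did not overlap. Slc7a11 and Csad were the 2 members of 10 without overlap, against 32.7% of all genes. Cth (1.51, adjusted p = 0.115), Slc6a6 (-1.10, 0.140), Gclm (-1.11, 0.281) and Cbs (0.60, 0.623) did not pass in limma either. Some alternatives called Csad, Cth, Slc6a6 and Gclm (lowest limma adjusted p 0.00457, 0.00283, 0.00119 and 0.00857), and none called Cbs. The result stayed the same in 10 of 12 alternatives for Csad, Cth and Slc6a6 and in 11 of 12 for Gclm.

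In K36M, 9 members passed the filter on a mean of 1 TPM, Cbs being below it. Of the 8 tested, 2 passed, both lower, against 15.4% of 16677 genes called lower, 9.86% called higher and 25.3% in all. Slc7a11 was lower with -4.59 ± 0.74 (SE, limma adjusted p = 0.000458), a median level 27.4 times lower. With replicate number as a block, which rests on shared numbers alone, Slc7a11 was at -4.0005 and lost the call (limma adjusted p = 0.0604). Slc6a6 was lower with -1.80 ± 0.63 (SE, limma adjusted p = 0.0493), close to the threshold. It lost the call without any 1 K36M FGO library, without embryos 2 and 8, with a pseudocount of 0.1 and with replicate number as a block. These were also the 2 members whose groups did not overlap, against 26.3% of all genes. Gclc differed by 0.17 ± 1.26 (SE, adjusted p = 0.931) in K36M, with embryos far above and far below the FGO libraries.

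**Figure D4:**
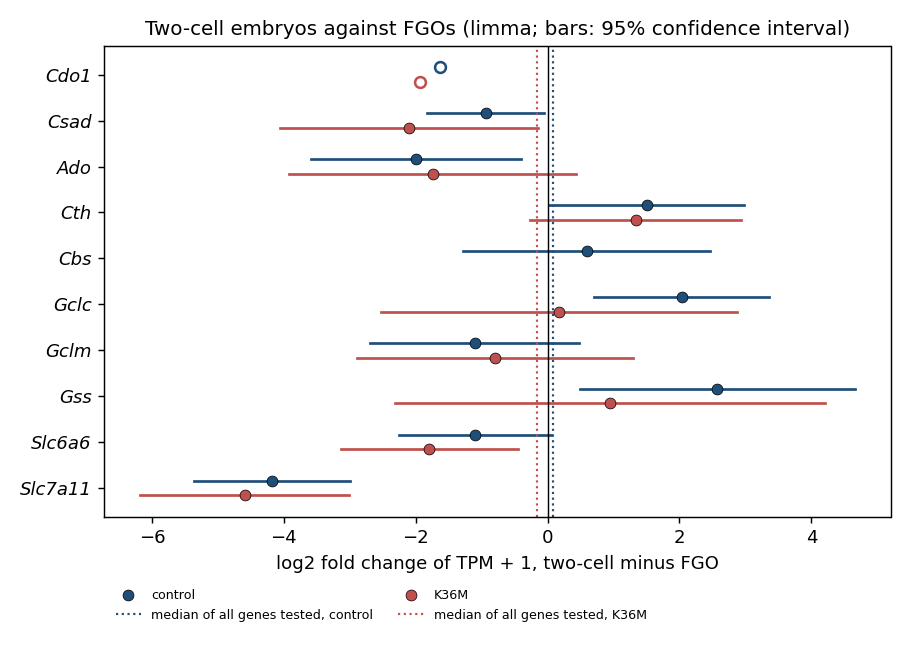
Log2 fold change of TPM + 1, two-cell embryo minus FGO, for each gene in control (blue) and K36M (red), with 95% confidence intervals from limma and dotted lines at the median of all genes tested (0.08 and -0.16). Slc7a11 has intervals well below 0 in both genotypes (-5.36 to -2.999 and -6.18 to -3.01), Cdo1 is shown as open points without a test, and Cbs is absent in K36M because it was under the filter.

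Whether the stage difference depended on genotype was tested as an interaction in 1 fit over the 21 libraries. None of the 9 members other than Cdo1 passed, nor had any an unadjusted p under 0.05, against 0% and 1.15% of 17358 genes. The smallest adjusted p was 0.9999 in limma. The interaction for Gclc, called in control and not in K36M, was -1.86 (95% confidence interval -4.92 to 1.19), and that for Slc6a6, called in K36M and not in control, was -0.70 (-2.43 to 1.03). The stage differences of these genes were therefore not shown to differ between genotypes. The fit gave each gene the same spread in FGO pools and single embryos, although these differed. Gclm had an SD of 0.04 in control FGOs and 1.39 in control embryos on the log2 scale. The 1.15% of all genes is below the 0.05 threshold taken as a share, so the test was conservative. The absence of calls cannot show that the stage differences were equal. For Slc7a11 the interaction was -0.41 (-2.32 to 1.49).

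The wider pathway was described with 116 further genes in 5 lists. Between K36M and control none of them passed, with 86 tested in FGOs and 101 in embryos. An unadjusted p under 0.05 was found for 14 (16.3%) in FGOs, against 10.5% of all genes, and for 10 (9.90%) in embryos, against 7.71%. Their median log2 difference was 0.02 in FGOs and -0.20 in embryos, next to 0.01 and -0.26 for all genes.

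From FGO to embryo in control, 25 of 99 tested pathway genes (25.3%) were called higher and 23 (23.2%) lower, against 15% and 15.5% of all genes. Among regulators of these pathways 7 of 10 were higher and none lower, with a median of 1.56 next to 0.08 for all genes. They were Trib3 (4.88), Nupr1 (3.81), Mafk (2.78), Mafg (1.73), Bach1 (1.44), Nfe2l1 (1.42) and Atf4 (0.77), the last being a transcription factor of the amino acid stress response. Nfe2l2, the factor that acts through antioxidant response elements, differed by 0.21 (limma adjusted p = 0.751). Carriers of cysteine, cystine, taurine and related amino acids were called in both directions, 4 higher and 3 lower of 10. Slc16a6, a monocarboxylate carrier family member that also carries taurine, had the largest rise among them, from a median of 0.652 to 64.0 TPM (log2 5.39). It averaged 0.58 TPM in control FGOs and 65.3 TPM in control embryos, so it passed the filter only through the embryos. The lists of sulphur amino acid genes (4 higher, 2 lower, of 23) and of thioredoxin and peroxiredoxin genes (4 and 4 of 16) were mixed, and Sesn2, a stress-induced sestrin, rose from a median of 4.34 to 443 TPM (log2 6.00). Of 40 genes of glutathione use and recycling 14 were lower and 6 higher. Glrx, a glutaredoxin that reduces protein disulfides with glutathione, fell from a median of 334 to 4.99 TPM (log2 -6.01), while Ggt6 of the gamma-glutamyl transferase family reached 46.2 TPM from a median listed at 0 (log2 4.99). Ggt6 averaged 0.27 TPM in control FGOs and 55.2 TPM in control embryos, so it too passed the filter only through the embryos. The counts called higher include such genes.

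In K36M 13 of 102 tested pathway genes (12.7%) were called higher and 18 (17.6%) lower, against 9.86% and 15.4% of all genes. Of the regulators 5 of 10 were called higher and none lower (3 of 10 with median-of-ratios scaling), with a median of 1.39 next to -0.16 for all genes. They were Trib3 (4.17), Mafk (2.46), Mafg (1.44), Bach1 (1.33) and Nfe2l1 (1.30). Sulphur amino acid genes gave 1 higher and 4 lower of 25, carriers 3 and 2 of 11, glutathione use 2 and 9 of 41, and thioredoxin and peroxiredoxin genes 2 and 3 of 15. Glrx fell from 318 to 2.01 TPM by median (log2 -6.55) and Gstt2, a glutathione transferase, from 50.7 TPM to a median listed at 0 (log2 -5.17). Sesn2 rose from 5.47 to 389 TPM (log2 5.76) and Gpx1, the cytosolic glutathione peroxidase, from 16.4 to 380 TPM (log2 4.41). With median-of-ratios scaling the calls in K36M were 11 higher and 24 lower, a larger share lower.

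**Figure D5:**
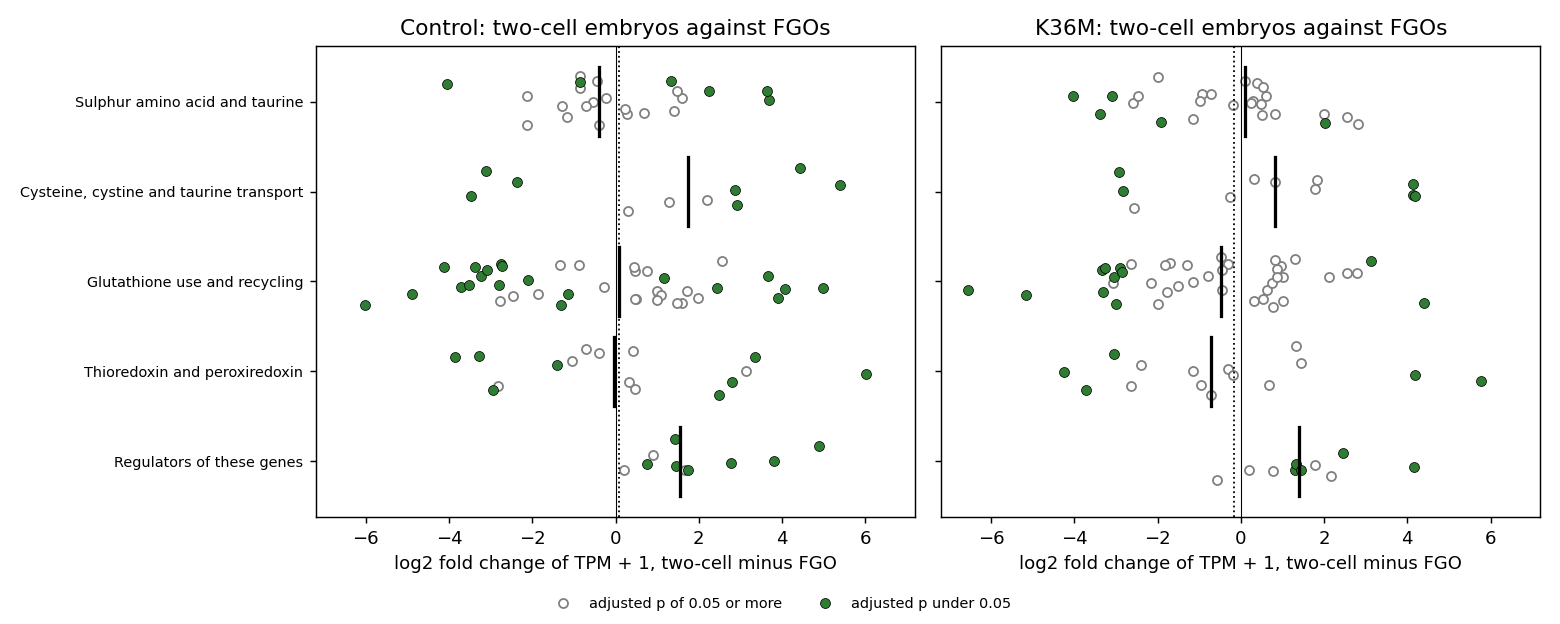
Log2 fold change of TPM + 1, two-cell embryo minus FGO, for the tested genes of the 5 pathway lists in control (left) and K36M (right), with filled points for an adjusted p under 0.05 in limma, solid bars at list medians and a dotted line at the median of all genes tested. The regulators lie mostly to the right (medians 1.56 and 1.39), and the other lists hold calls on both sides.

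Cdo1 lies on chromosome 18 (46713193 to 46728502, GRCm38.p6), with no overlapping RefSeq gene. The 8 nearest genes with a mean of at least 1 TPM in FGOs, 4 on each side and up to 401 kb away, were compared in FGOs. None passed (smallest limma adjusted p 0.306), 4 were higher and 4 lower in K36M, and 2 had an unadjusted p under 0.05, against 10.5% of all genes. Atg12, an autophagy gene 3.92 kb away, was at 172 ± 4.62 TPM in control and 177 ± 8.56 TPM in K36M FGOs (SD, n = 3 each; log2 difference 0.04 ± 0.08 SE). Commd10, 230 kb away, was lower in every K36M library, with 33.5 ± 4.33 against 16.5 ± 5.41 TPM (SD, n = 3 each; log2 difference -1.01 ± 0.23 SE, limma adjusted p = 0.306). Ccdc112, 401 kb away on the other side, was at 43.6 ± 5.94 and 32.7 ± 6.78 TPM with overlapping groups (log2 difference -0.41, adjusted p = 0.470).

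Over the 21 libraries, the genes whose centred log2(TPM + 1) lay closest to that of Cdo1 included Msantd3, Xntrpc, Ceacam2 and Msantd4, with root mean square differences of 0.887 to 0.939 log2 units. The median over 17357 genes was 2.02, and a gene that did not vary would lie at 1.73, the root mean square of Cdo1 around its own mean. Their mean levels in control and K36M FGOs were 52.9 and 48.5 TPM for Msantd3, 14.5 and 15.99 TPM for Xntrpc, 11.5 and 8.59 TPM for Ceacam2, and 88.6 and 120.1 TPM for Msantd4. All 4 had lower means in embryos than in FGOs of the same genotype, as Cdo1 had, but in FGOs 2 of them had a higher mean in K36M. Among the members Slc6a6 was closest to Cdo1 (1.34, rank 508) and Gss farthest (3.05, rank 16469).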

How the data were processed

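RNA-seq libraries were made with a SMART-Seq stranded kit. Per the labels and methods, the authors trimmed reads with Trim Galore, mapped them to mm10 with HISAT2, removed ribosomal RNA reads with bedtools, counted genes with featureCounts and deposited TPM values, in which depth is not kept. The annotation, gene lengths and strand setting were not given in the sources used here.

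All 26214 genes were analysed and the rows of the members printed. Linear models of log2(TPM + 1) came from limma 3.58.1 (R 4.3.3; lmFit, then eBayes with a trend). Genes averaging 1 TPM or more across a fit's libraries were tested, their p-values were adjusted together by Benjamini-Hochberg, and 0.05 was the threshold. The script was tested on simulated data in which each gene had the same spread in every group. FGO pools and single embryos spread unequally here, which neither that test nor the main fits allow for. Only the study's groups were compared, and nothing in the labels says that libraries of a group came from separate animals, so p-values measure the spread between libraries, which may be technical. Cdo1 in embryos was also compared by exact permutation, enumerated in Python 3.11.15 with numpy 2.4.6. Members, lists and tests were chosen with earlier results of these data known. Pathway genes were named for the 4 largest changes past the threshold without overlap per comparison, and regulators after their values were seen; neighbours and most similar genes were named by position and distance, and 1 of the most similar genes is not reported here. Same-numbered libraries of control and K36M did not deviate together (r 0.0145 to 0.101 in FGOs, -0.101 to 0.0968 in embryos), so numbers were not treated as pairs.

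Alternatives were a pseudocount of 0.1, no filter, a mean of 5 TPM, quantile normalization, median-of-ratios scaling, no trend, array weights, a block for replicate number, each FGO library left out and control embryo replicate 4 added. Leaving out embryos 2 and 8 of K36M, and each embryo for Cdo1, was added after seeing the data. ChIP-seq, CUT&RUN and bisulfite data of the series were not used here.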

Additional observations from a re-analysis of the deposited data

Results flagged for a closer look

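Gclc in control two-cell embryo replicate 6 was 8.36 TPM, far below the other 6 control embryos by Dixon's test. It was the only value flagged in the 20 groups examined, each of 7 control or 8 K36M embryos, where chance alone gives about 1. The same embryo had the most Cdo1, Csad, Gclm, Slc6a6 and Slc7a11 of the control embryos.

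Control embryo replicate 4, which entered no comparison, had 32.5 TPM of Csad and 19.6 TPM of Cbs, each above the 7 other control embryos.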

How the results depend on the processing

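TPM does not keep the reads counted for a gene, which limits the levels near 0 in single embryos. For every comparison of K36M with control and for the interaction, no alternative gave a call for a member other than Cdo1. Calls among the other members from FGO to embryo were 2 in control and became 3 with quantile normalization or without the mean-variance trend (Ado added), 3 with a mean TPM of at least 5 or with control embryo 4 (Gss added), 4 with median-of-ratios scaling, 8 with array weights and 1 when any FGO library was left out. In K36M the 2 calls became 1 with a pseudocount of 0.1, 5 with array weights, 1 without embryos 2 and 8, and 1 when any FGO library was left out. With the replicate block, which rests on shared numbers alone (4 of 6 FGO and 2 of 15 embryo libraries correlated best with their own number), calls were 4 in control and 0 in K36M (Slc7a11 -4.0005, limma adjusted p = 0.0604; Slc6a6 -1.84, 0.0749) and the Cdo1 difference in embryos -1.77 (exact sign-flip p = 0.0469). That difference was -1.94 with control replicate 4 and -2.003 to -1.27 when each embryo was left out, p being 0.0443 without control 2 and 0.0350 without K36M 3. Over all genes, calls between FGOs were 1, 0 with a pseudocount of 0.1 and 300 without K36M FGO replicate 1. Those between embryos were 0 to 5, in the interaction 0 to 13, from FGO to embryo 3015 to 9396 in control (5159 as reported), and 2342 to 8212 in K36M (4217 as reported).

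Some directions turned. In FGOs Slc6a6 became -0.0087 with array weights and -0.084 to 0.16 when a library was left out, Cth -0.40 to 0.088 and Ado -0.068 to 0.58. In embryos Slc7a11 became 0.20 with quantile normalization and Gclm -0.12 without embryos 2 and 8. Gclc in K36M became -0.11 with a pseudocount of 0.1. In the interaction, quantile normalization gave Slc7a11 0.34, Cth 0.024 and Cdo1 0.13, array weights gave Cdo1 0.35, and leaving out a library gave Cth -0.39 to 0.10 and Ado -0.035 to 0.62. The cause was not tested.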

Other observations

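In 6 of 15 embryos one subunit of glutamate-cysteine ligase was high and the other low, a pattern picked out after the values were seen and given without a test. K36M embryos 5 and 8 had the least Gclc (1.05 and 0.268 TPM) and the most Gclm (109 and 91.1 TPM) of their group, and control embryo 6 likewise had the least Gclc (8.36 TPM) and the most Gclm (67.2 TPM). At the other end, control embryos 2 and 8 had 80.5 and 61.3 TPM of Gclc with 7.60 and 4.48 TPM of Gclm, and K36M embryo 7 had 56.5 TPM of Gclc with 2.26 TPM of Gclm. K36M embryo 1 was low in both (5.42 TPM of Gclc and 4.45 TPM of Gclm). The other 8 embryos held both subunits, with 38.5 to 87.8 TPM of Gclc and 24.1 to 66.9 TPM of Gclm. K36M embryo 8 was among those with the fewest genes above 0, and the part of library quality in these values was not tested. In the 6 FGO libraries the subunits stayed within 9.94 to 17.3 TPM for Gclc and 47.9 to 56.8 TPM for Gclm.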
